A study of Rattus norvegicus with 4 samples.

Results

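Voltage-gated sodium channels, voltage-gated calcium channels and the hyperpolarization-activated cyclic nucleotide-gated (HCN) channels set how a neuron fires. Sodium channels carry the rising phase of the action potential, calcium channels couple depolarization to transmitter release and to signalling in the cell body and dendrites, and HCN channels open on hyperpolarization and steady the resting potential of pyramidal cell dendrites. A sodium channel consists of a pore-forming alpha subunit with beta subunits, and a high-voltage-activated calcium channel of a pore-forming alpha1 subunit with an alpha2delta and a beta subunit. The genes of these channels were chosen by symbol, as all probe sets with exactly 1 annotated gene symbol that begins with Scn, Cacnb or Hcn before a digit, or with Cacna. This gave 31 genes out of 14217 with a probe set of their own, and 46 probe sets out of the 31042 on the array that were not Affymetrix controls. There were 14 probe sets of sodium channels, 29 of calcium channels and 3 of HCN channels.

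RNA came from the hippocampus of male Wistar rats, dissected at an age of 16 months, and was hybridized to Affymetrix rat genome arrays. The stressed rats had gone through chronic unpredictable mild stress, a changing series of mild stressors used as a model of depression, for 4 weeks from an age of 15 months. The nonstressed controls were of the same age and sex, were kept in standard housing and could eat and drink freely. Each group had 2 arrays, with the RNA of 3 rats pooled on each, so that the level of a single rat was not measured. The sources used here call these arrays biological replicates but do not state that different rats went into the pools of a group, and each p measures the spread between pools, which may in part be technical.

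The authors' linear signal intensities were compared on the log2 scale by limma, with Benjamini-Hochberg adjustment over all 14791 probe sets that reached a signal of 100 on at least 2 arrays. A difference is given as stressed minus control in log2 signal, and a gene is said to have risen or fallen in stressed rats where the adjusted p was under 0.05. Of the 46 channel probe sets, 19 of 16 genes reached that signal, and the other 27 stayed below it. Median signals over all probe sets were 79.9 and 82.1 on the stressed arrays and 80.5 and 79.3 on the control arrays. As a check of the labelled tissue, 14 of 14 neuron markers, 7 of 12 dentate gyrus markers, 7 of 9 CA1 markers and 8 of 11 CA3 markers were bright enough to be tested, against 8 of 14 thalamus markers and 9264 of 14217 genes in all. These counts show neuronal RNA on the arrays and do not by themselves tell the hippocampus from its neighbours. Since the tissue was bulk hippocampus, a smaller share of cells of a type and less RNA per cell cannot be told apart.

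Differences of the tested channel genes were small, as they were for most tested probe sets. The sodium channel alpha subunit Scn2a, the sodium channel beta subunit Scn2b and the calcium channel subunit Cacna2d1 rose in stressed rats, and 1 of the probe sets of the sodium channel beta subunit Scn3b fell. These 4 of 19 tested probe sets made up 21.1%, against 23.8% of all probe sets tested. By direction, 3 of 19 rose (15.8%, against 12.0% of all tested probe sets) and 1 of 19 fell (5.26%, against 11.8%). No channel probe set reached a 2-fold difference at an unadjusted p under 0.05, a rule that 1.60% of all tested probe sets met. Log2 differences of the channel probe sets lay between -0.44 and 0.42, with a median of 0.10, and the median over all tested probe sets was 0.02 with quartiles of -0.13 and 0.17. The median size of the difference, without its sign, was 0.188 for the channel probe sets and 0.153 for all tested probe sets.

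Weaker criteria were set beside the arrays as a whole in the same way. Without adjustment for the number of tests, 10 of 19 channel probe sets had a p under 0.05 (52.6%, against 38.0% of all). The signals of the groups did not overlap for 13 of 19 (68.4%, against 64.4% of all), with the stressed arrays higher for 9 (47.4%, against 34.9%) and lower for 4 (21.1%, against 29.5%). The difference was above 0 for 11 of 19 (57.9%, against 53.8% of all). Counted once per gene, at the brightest tested probe set, 3 of 16 channel genes rose (18.8%, against 11.1% of 9264 genes). At that probe set 0 of 16 fell by limma (0.00%, against 10.2% of genes), with 1 at an unadjusted p under 0.05 and a negative difference.

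**Figure D1:**
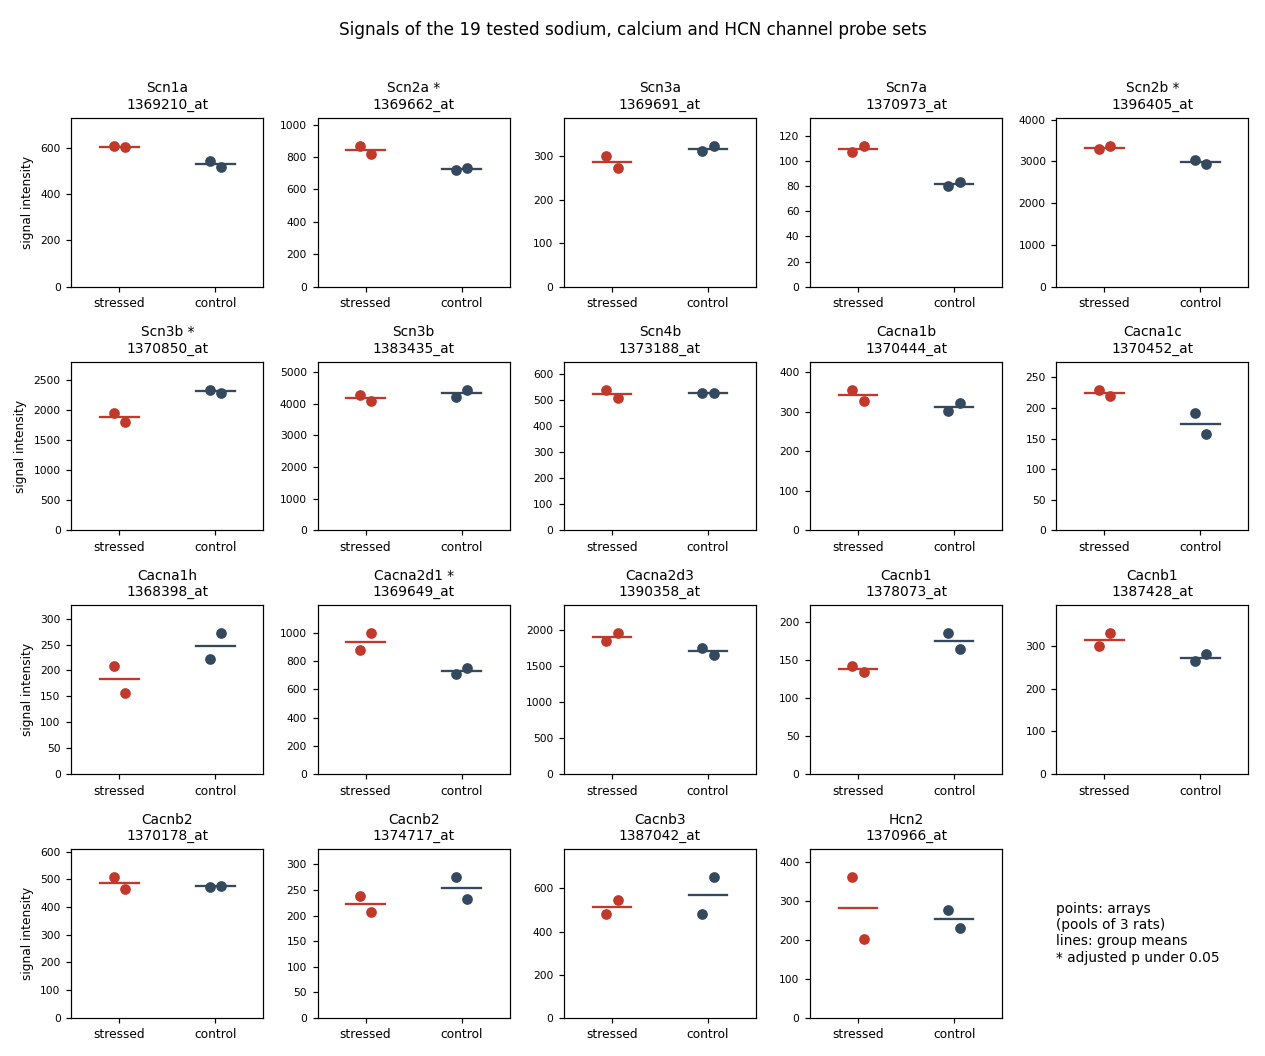
Signal intensities of the 19 tested channel probe sets on each array, with stressed arrays in red on the left and control arrays in dark blue on the right of each panel, and lines at the group means. Each point is a pool of 3 rats, vertical axes start at 0 and differ between panels, and a star marks an adjusted p under 0.05. Groups separate without overlap in 13 panels, and the stressed arrays lie far apart for Hcn2 (360.3 and 200.9).

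Among the sodium channel alpha subunits, Scn2a rose and 3 others did not pass the test. Scn2a encodes an alpha subunit found in the axon initial segment and unmyelinated axons of excitatory neurons. Its signal was 868.3 and 819.4 in stressed rats and 722.6 and 729.4 in nonstressed controls, so that both stressed arrays were above both control arrays. It averaged 844 ± 34.6 in stressed rats and 726 ± 4.81 in nonstressed controls (SD, n = 2 each), a log2 difference of 0.22 ± 0.06 (SE, 95% interval 0.08 to 0.35, adjusted p = 0.0315, limma). Among other alternatives, the call did not hold in limma on median-centred signals (adjusted p = 0.06) or without an intensity trend (0.0914). Nor did it hold by the methods' t-tests on log2 (0.182) and linear signals (0.188). It was also lost without stressed replicate 1 (a difference of 0.17), control replicate 1 (0.21) or control replicate 2 (0.22).

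Scn1a, the alpha subunit on which fast-spiking interneurons depend most, had signals of 608.8 and 604.3 in stressed rats, against 544.3 and 519.5 in nonstressed controls. The difference of 0.19 ± 0.06 in log2 signal did not pass the test (95% interval 0.04 to 0.34, adjusted p = 0.065), although the groups did not overlap. Scn3a, an alpha subunit most abundant before birth, had 300.5 and 273.0 in stressed rats and 310.8 and 322.8 in nonstressed controls. It was the only tested alpha subunit with lower signals on the stressed arrays (-0.15, 95% interval -0.36 to 0.07, adjusted p = 0.288). Scn7a encodes Nax, a sodium-level sensor that is not gated by voltage like its relatives.

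Scn7a was the dimmest channel probe set to enter the test, with 106.9 and 111.9 in stressed rats against 79.9 and 83.4 in nonstressed controls. It reached the signal of 100 only on the stressed arrays, which favours a positive difference, and its 0.42 ± 0.15 did not pass the test (adjusted p = 0.0797). Just below the limit lay a probe set of Cacna1a, with 89.5 and 91.2 in stressed rats and 72.8 and 73.5 in nonstressed controls. Scn2a, Scn1a, Scn3a and Scn7a lie near each other on rat chromosome 3, together with Scn9a, which was too dim to be tested.

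The sodium channel beta subunits are single-pass membrane proteins that adjust channel gating and surface number and also act in cell adhesion. Scn2b, a subunit joined to the alpha subunit by a disulfide bond, rose, with 3283.7 and 3366.8 in stressed rats against 3030.1 and 2931.5 in nonstressed controls. Its mean was 3325 ± 58.8 in stressed rats and 2981 ± 69.7 in nonstressed controls (SD, n = 2 each). The log2 difference of 0.16 ± 0.04 (95% interval 0.06 to 0.26, adjusted p = 0.0376) was the smallest of the 4 called. Among other alternatives, the call was lost in limma on median-centred signals (adjusted p = 0.107) and without an intensity trend (0.153). The methods' t-tests on log2 (0.177) and linear signals (0.175) lost it too. It was also lost without each of the 4 arrays in turn, at differences of 0.13 to 0.18. A second probe set of Scn2b was not tested, with 47.0 and 50.4 in stressed rats and 34.0 and 54.2 in nonstressed controls.

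Scn3b, a beta subunit that associates with alpha subunits without a covalent bond, was measured by 2 tested probe sets. Both had a negative difference, and 1 passed the test. The probe set 1370850_at had 1954.0 and 1804.6 in stressed rats, against 2337.5 and 2277.7 in nonstressed controls, and fell. Its mean of 1879 ± 106 in stressed rats and 2308 ± 42.3 in nonstressed controls (SD, n = 2 each) gave a log2 difference of -0.30 ± 0.05 (95% interval -0.42 to -0.17, adjusted p = 0.00686). The call was lost in limma without an intensity trend (adjusted p = 0.0576) and by the methods' t-tests on log2 (0.186) and linear signals (0.175). It was also lost under the 2-fold rule and without control replicate 1, where the difference was -0.28. The other, 1383435_at, had 4257.8 and 4069.8 in stressed rats and 4207.7 and 4436.6 in nonstressed controls, with overlapping groups and a difference of -0.05 (95% interval -0.17 to 0.06, adjusted p = 0.458). The signals of the probe sets are not comparable with each other, and whether their log2 differences differ was not tested. Which transcripts of Scn3b each detects was not tested either.

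Scn4b, which is also disulfide-linked and lies next to Scn2b on chromosome 8, had 541.1 and 508.0 in stressed rats and 530.3 and 526.6 in nonstressed controls. Both control values fell between the stressed values, and the difference was -0.01 (95% interval -0.17 to 0.14, adjusted p = 0.918). The neighbouring genes Scn2b and Scn4b thus had different outcomes of the test, though the difference between them was not itself tested.

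**Figure D2:**
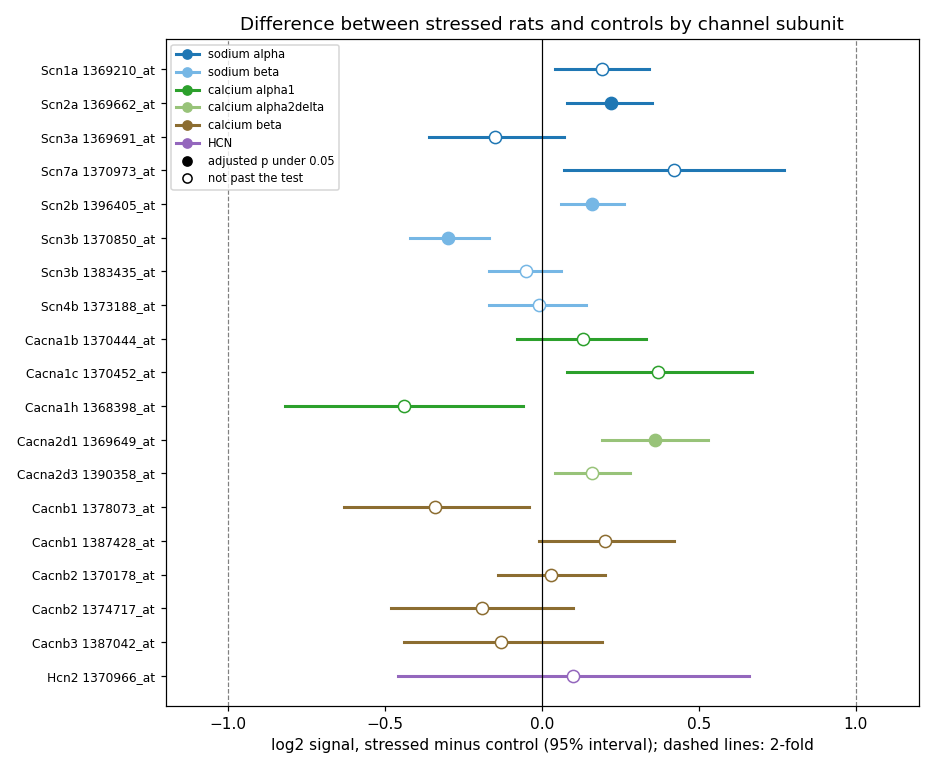
Log2 difference in signal, stressed minus control, for each of the 19 tested channel probe sets, coloured by subunit, with 95% intervals from limma as bars. Filled points mark an adjusted p under 0.05 and dashed lines mark 2-fold. All points lie within -0.44 and 0.42, and the interval of Hcn2 is the widest, from -0.46 to 0.66.

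Of the pore-forming calcium channel alpha1 subunits, 3 were bright enough to be tested and 0 passed by limma after adjustment, with 2 of the 3 at an unadjusted p under 0.05 (against 23.8% of all tested probe sets with adjustment and 38.0% without). Cacna1c encodes the main L-type pore of the brain, which couples activity to gene transcription. It had signals of 229.7 and 219.9 in stressed rats, against 191.7 and 156.9 in nonstressed controls. The groups did not overlap, and the log2 difference was 0.37 ± 0.13 (95% interval 0.08 to 0.67, adjusted p = 0.0713). Cacna1b, the N-type pore of presynaptic terminals, had 355.4 and 327.1 in stressed rats and 302.5 and 322.3 in nonstressed controls, a difference of 0.13 (95% interval -0.08 to 0.33, adjusted p = 0.338).

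Cacna1h, a T-type pore that opens at low voltage and supports burst firing, had the most negative difference of all tested channel probe sets. Its signal was 209.2 and 156.3 in stressed rats and 222.7 and 271.6 in nonstressed controls. The highest stressed value was close to the lowest control value, and the difference of -0.44 ± 0.16 did not pass the test (95% interval -0.82 to -0.06, adjusted p = 0.0882). Without stressed replicate 1 it was -0.65 with an adjusted p of 0.0256.

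The alpha2delta subunits sit on the outer face of the membrane, carry calcium channels to the cell surface and bind the drugs gabapentin and pregabalin in the case of Cacna2d1. Cacna2d1 rose, with 877.8 and 997.3 in stressed rats against 708.9 and 750.7 in nonstressed controls, all stressed values above all control values. The mean was 938 ± 84.5 in stressed rats and 730 ± 29.6 in nonstressed controls (SD, n = 2 each), a log2 difference of 0.36 ± 0.07 (95% interval 0.19 to 0.53, adjusted p = 0.012). This was the largest of the 3 called rises, and it was 28.3% on the linear scale. The call was lost in limma without an intensity trend (adjusted p = 0.0607) and by the methods' t-tests on log2 (0.235) and linear signals (0.248). It was also lost under the 2-fold rule and without control replicate 1 (0.32) or control replicate 2 (0.40). The difference lay between 0.27 and 0.45 in the alternatives, many of which do not change it.

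Cacna2d3, the other tested alpha2delta subunit, had 1849.4 and 1949.4 in stressed rats and 1746.9 and 1653.8 in nonstressed controls. Its groups did not overlap either, but the log2 difference of 0.16 ± 0.05 missed the threshold (95% interval 0.04 to 0.28, adjusted p = 0.0601).

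The calcium channel beta subunits are cytoplasmic proteins that bind the alpha1 subunit and raise its surface number. Their 5 tested probe sets had a median log2 difference of -0.13, and 0 of 5 passed by limma, with 1 at an unadjusted p under 0.05 (against the same 23.8% and 38.0%). Cacnb1 had probe sets with opposite signs. The probe set 1378073_at had 142.1 and 133.9 in stressed rats and 184.5 and 164.1 in nonstressed controls (-0.34 ± 0.13, adjusted p = 0.0949). For 1387428_at the values were 299.6 and 329.0 in stressed rats and 264.5 and 280.7 in nonstressed controls (0.20 ± 0.09, adjusted p = 0.154), so that neither overlapped and neither passed.

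The probe sets of Cacnb2 also differed in sign, with overlapping groups in both. They had 508.4 and 465.4 in stressed rats against 473.4 and 477.6 in nonstressed controls for 1370178_at (0.03, adjusted p = 0.778), and 238.5 and 206.9 in stressed rats against 275.3 and 232.5 in nonstressed controls for 1374717_at (-0.19, adjusted p = 0.313). Cacnb3 had 481.5 and 548.0 in stressed rats and 482.8 and 652.4 in nonstressed controls, where control replicate 2 stood apart and the difference was -0.13 (95% interval -0.44 to 0.19, adjusted p = 0.531).

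Hcn2 was the only HCN gene bright enough to be tested. It encodes a subunit strongly activated by cyclic AMP. Its signal was 360.3 and 200.9 in stressed rats and 274.8 and 229.8 in nonstressed controls, so that the stressed arrays held both the highest and the lowest value. The mean was 281 ± 113 in stressed rats and 252 ± 31.8 in nonstressed controls (SD, n = 2 each), with a log2 difference of 0.10 ± 0.24 (95% interval -0.46 to 0.66, adjusted p = 0.797). This interval spans differences in either direction larger than any of the 4 calls above. The sign depended on single arrays, since the difference was 0.52 with an adjusted p of 0.0353 without stressed replicate 2, -0.32 without stressed replicate 1 and -0.03 without control replicate 2.

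**Figure D3:**
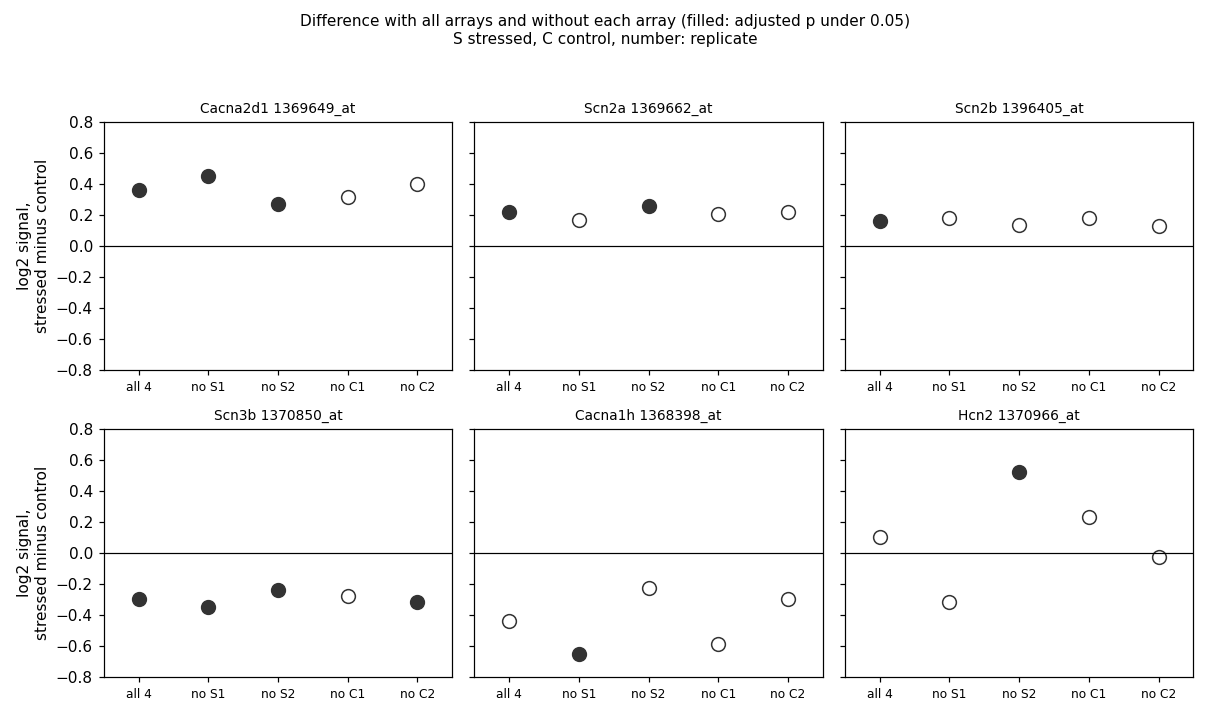
Log2 difference in signal, stressed minus control, of the 4 called channel probe sets and of Cacna1h and Hcn2, with all 4 arrays and without each array in turn (S, stressed; C, control). Filled points mark an adjusted p under 0.05. The groups of the 4 called probe sets do not overlap, so leaving out an array cannot turn their sign. Scn2b is filled only with all arrays, and Hcn2 runs from -0.32 to 0.52.

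The 3 channel genes that rose are shown with the bases just upstream of their annotated starts, to let the letters be read beside the values. The windows come from RefSeq on the rat build GRCr8, in the direction of the gene, and 12 of the 16 tested channel genes had one. Scn3b had no entry. Capitals mark matches on either strand to the glucocorticoid receptor core AGAACA, the core TGACG of the cyclic AMP response element (CRE), and GGGCGG, the Sp1 box.
Cacna2d1, chr4:20330148-20330397, minus strand: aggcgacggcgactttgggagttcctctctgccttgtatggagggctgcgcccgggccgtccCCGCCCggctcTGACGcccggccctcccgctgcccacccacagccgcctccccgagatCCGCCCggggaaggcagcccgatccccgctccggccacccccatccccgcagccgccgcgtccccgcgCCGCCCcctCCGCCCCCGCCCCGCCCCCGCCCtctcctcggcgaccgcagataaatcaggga
Scn2a, chr3:70710706-70710955, plus strand: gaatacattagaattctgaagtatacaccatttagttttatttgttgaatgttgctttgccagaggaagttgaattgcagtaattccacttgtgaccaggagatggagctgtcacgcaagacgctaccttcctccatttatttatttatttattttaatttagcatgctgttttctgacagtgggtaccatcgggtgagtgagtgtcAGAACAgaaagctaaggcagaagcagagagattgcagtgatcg
Scn2b, chr8:54322133-54322382, plus strand: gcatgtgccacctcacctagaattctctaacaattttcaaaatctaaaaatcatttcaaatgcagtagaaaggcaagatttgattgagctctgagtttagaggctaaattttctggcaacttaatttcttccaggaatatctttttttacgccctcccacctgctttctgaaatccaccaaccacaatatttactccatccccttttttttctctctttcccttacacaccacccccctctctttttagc
The window of Cacna2d1, the first of 3 listed for that gene, had a GC content of 77.2% with 7 Sp1 boxes, some of them overlapping, and 1 CRE core. The window of Scn2a was 39.6% GC and held 1 glucocorticoid receptor core, and that of Scn2b was 38.8% GC and held none of these letters. Over 27457 windows of this length, 1 a gene and the first listed, 17.1% held the glucocorticoid receptor core, 19.0% the CRE core and 32.4% the Sp1 box. Among the 12 channel windows, 2 held the glucocorticoid receptor core, 3 the CRE core and 7 the Sp1 box. The median GC content was 71.6% over the 12 channel windows and 52.0% over the 27457 windows. A match is a run of letters and not a binding site.

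The channels are held in place and tuned by partner proteins, and 44 of 62 listed partner and regulator genes could be tested at their brightest probe set. In stressed rats 19 of them rose (43.2%, against 11.1% of all genes at their brightest tested probe set) and 5 fell (11.4%, against 10.2%), and 20 did not pass. Among these, Cntn2 and Kcne2 entered the test only through the stressed arrays and Akap5 only through the control arrays, which favours a difference in the direction found. The median log2 difference was 0.11 for these 44 genes and 0.02 over all genes. This list was chosen with earlier results of these data known, so the shares describe it and are no test of it. On median-centred signals 14 of the 44 rose. The count of rises was 6 without control replicate 1, 6 without control replicate 2, 8 without stressed replicate 1 and 12 without stressed replicate 2. Without control replicate 2 the count of falls was 3.

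Adhesion and scaffold proteins that gather sodium and potassium channels at the axon initial segment, the node of Ranvier and the flanking paranodes and juxtaparanodes were among the rises. Cntnap2, which clusters potassium channels beside the node, had 923.7 and 912.4 in stressed rats against 644.7 and 650.9 in nonstressed controls (0.50 ± 0.05, adjusted p = 8.21e-04), while its second probe set did not pass (-0.31). Nrcam, an adhesion molecule of the node, had 1310.8 and 1314.8 in stressed rats and 969.4 and 1019.6 in nonstressed controls (0.40 ± 0.05, adjusted p = 0.00176), and its other probe sets also rose (0.23 and 0.32). Nfasc, its relative at the node and initial segment, had 688.8 and 684.4 in stressed rats and 554.2 and 544.2 in nonstressed controls (0.32 ± 0.06, adjusted p = 0.00793), and another probe set rose as well (0.42). The third probe set of Nfasc (0.56) reached the signal of 100 only on the stressed arrays, which favours a rise. None of the stressed values at the brightest probe sets of Cntnap2, Nrcam and Nfasc overlapped the control values.

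Sptbn4, the beta-IV spectrin under the initial segment membrane, rose as well, with 1399.1 and 1289.9 in stressed rats against 1068.7 and 1136.2 in nonstressed controls (0.29 ± 0.06, adjusted p = 0.0131). Contactins and their partner rose too, with log2 differences of 0.54 for Cntn2, which reached the signal of 100 only on the stressed arrays, 0.40 for Cntn1 and 0.24 for Cntnap1. Ank3, the ankyrin that anchors sodium channels at the initial segment, fell, with 1016.0 and 832.4 in stressed rats against 1169.6 and 1301.2 in nonstressed controls (-0.42 ± 0.10, adjusted p = 0.0176). A second probe set of Ank3 was at -0.04 and did not pass. The call for Ank3 was lost in limma without an intensity trend (adjusted p = 0.0818) and by the methods' t-tests on log2 (0.301) and linear signals (0.286). It was also lost without control replicate 1 (-0.50) or control replicate 2 (-0.35). Ank2, an ankyrin of axons and other membranes, rose at its brightest probe set (0.33) and fell at the other (-0.63), both past the test.

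The most precise of the falls concerned an HCN channel partner. Pex5l encodes TRIP8b, a brain auxiliary subunit that governs the trafficking and gating of HCN channels. It had 771.0 and 749.5 in stressed rats against 1547.5 and 1518.9 in nonstressed controls, values that lay far apart between groups and close together within them. The log2 difference was -1.01 ± 0.05 (adjusted p = 2.72e-05). It stayed between -1.03 and -0.97 in the 16 alternatives run, many of which do not change the difference itself. The methods' t-tests on log2 and on linear signals lost the call.

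Kcne2, an accessory subunit of potassium channels that can also join HCN channels, rose, with 105.0 and 103.3 in stressed rats against 59.8 and 55.4 in nonstressed controls (0.86 ± 0.17, adjusted p = 0.00963). Its controls lay below the signal of 100, and with an offset of 50 added to all signals the difference was 0.52. Kcne2 is also a gene of the choroid plexus, the epithelium that makes cerebrospinal fluid. Of the 11 tested choroid plexus markers, Kcne2 among them, 9 rose and 0 fell (against 11.1% and 10.2% of all genes), of which Cldn2, Aqp1 and Kcne2 reached the signal of 100 only on the stressed arrays. Their summed signal was 21755 and 20469 in stressed rats and 15672 and 17394 in nonstressed controls. Transthyretin (Ttr), which defines that epithelium, made up most of this sum and did not pass the test (0.27, adjusted p = 0.0579). It had 12992.4 and 11938.5 in stressed rats and 9449.9 and 11337.7 in nonstressed controls. The part of choroid plexus RNA in the difference of Kcne2 was not tested.

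Listed proteins of presynaptic release sites, where calcium channels trigger transmitter release, gave mixed results. Among those that rose, the log2 difference was 0.30 for Rimbp2, which links calcium channels to the active zone, 0.27 for the active zone scaffold Bsn, 0.23 for syntaxin 1A (Stx1a) and 0.16 for Snap25. Another probe set of Rimbp2 fell (-0.40), and the 2 others did not pass (-0.17 and -0.02). The release site scaffolds Rims1 (0.11) and Rims2 (-0.13) and the calcium channel binding adaptors Cask (-0.26) and Apba1 (-0.00) did not pass. The call for Snap25 was lost in 15 of 16 alternatives, at differences of 0.09 to 0.20. Dpysl2 (CRMP2), which binds the N-type calcium channel, rose by 0.18, and Cachd1, a relative of the alpha2delta subunits, by 0.35.

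Kinases, ubiquitin ligases and anchors that regulate the channels gave the rest. Camk2a, the calcium-calmodulin kinase subunit of excitatory neurons, rose at both tested probe sets (0.18 and 0.55), and Calm2, a calmodulin gene, by 0.16. Nedd4l, a ubiquitin ligase that takes sodium channels off the surface, rose by 0.29, and Akap9, which anchors protein kinase A, rose at its brightest probe set (0.26) and fell at another (-0.97). Akap5, which holds protein kinase A and calcineurin at L-type calcium channels, had 67.5 and 82.3 in stressed rats against 290.9 and 277.0 in nonstressed controls, and its log2 difference of -1.93 ± 0.14 (adjusted p = 1.48e-04) was the most negative of the list. The stressed signals of Akap5 lay below 100, and with an offset of 50 the difference was -1.42. Lin7b, a scaffold protein of synapses, fell by 0.36, and S100a10, which helps carry certain sodium channels to the membrane, fell by 0.28. Fgf12 and Fgf13, which bind the cytoplasmic tail of sodium channels, did not pass (0.10 and -0.01). The calls for Cntn1, Cntn2, Cntnap1, Nedd4l, Stx1a, Calm2, Dpysl2 and Camk2a were each lost in 7 to 10 of the 15 or 16 alternatives run.

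**Figure D4:**
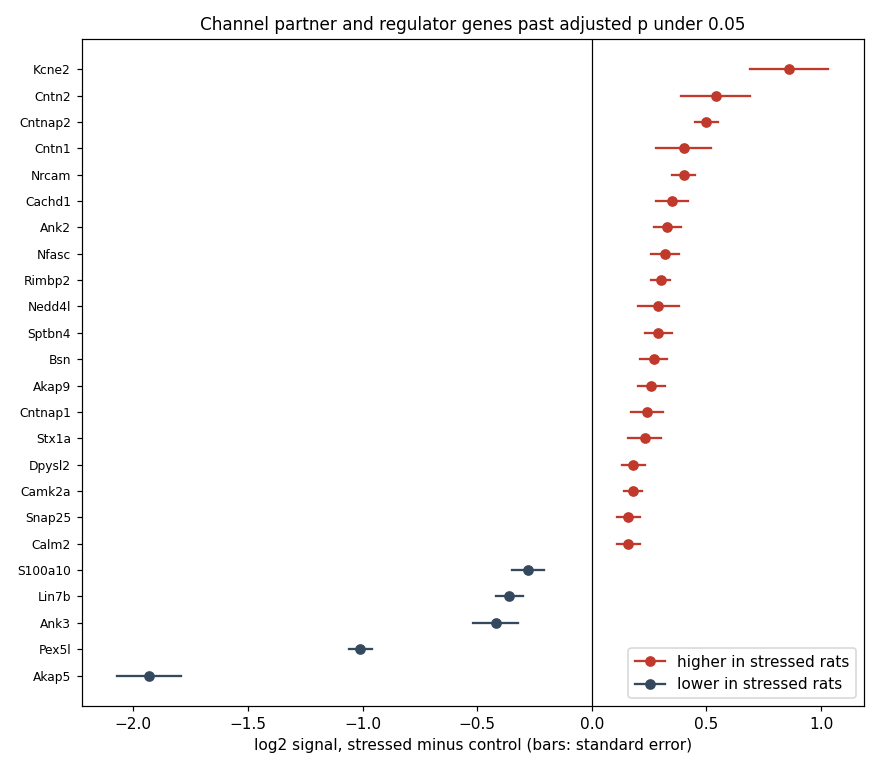
Log2 difference in signal, stressed minus control, of the 24 channel partner and regulator genes with an adjusted p under 0.05 at their brightest tested probe set, with standard errors as bars. Red points are the 19 genes higher in stressed rats and dark blue points the 5 lower ones. Pex5l (-1.01) and Akap5 (-1.93) lie apart from the other genes.

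Among relatives of the channels, 2 of 5 tested leak and two-pore channel genes rose and 0 fell (against 11.1% and 10.2% of all genes). Nalcn, the sodium leak channel that sets resting excitability, rose, with 1230.4 and 1212.7 in stressed rats against 1056.2 and 1094.6 in nonstressed controls (0.18 ± 0.05, adjusted p = 0.0333). Its large cytoplasmic partner Unc80 rose by 0.28 ± 0.07 (adjusted p = 0.0239), and the other large partner, Unc79, had a difference of 0.26 that did not pass (adjusted p = 0.0524). The other tested relatives, Nalf1 (-0.03) and Tpcn1 (0.18), did not pass. The stargazin relatives Cacng2 and Cacng3, named as calcium channel gamma subunits and known mainly as AMPA receptor partners, had differences of 0.03 and 0.25 at their brightest probe sets and did not pass (adjusted p = 0.847 and 0.0962). A second probe set of Cacng2, at -0.46, did not pass either.

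Marker genes of several cell types moved in the same samples, and are read against the 11.1% of all genes that rose and the 10.2% that fell at their brightest probe set. In these lists a count of 1 is near that share. Like those of the choroid plexus and of the channel relatives, they were chosen with earlier results of these data known. Of 11 tested interneuron markers 0 rose and 4 fell (summed signal 12276 and 11812 in stressed rats, 13311 and 13591 in nonstressed controls), of 7 CA1 markers 0 rose and 3 fell, and of 8 CA3 markers 0 rose and 5 fell (6101 and 5900 in stressed rats, 7100 and 6835 in nonstressed controls). Of 14 neuron markers 5 rose and 2 fell, and of 9 endothelial markers 4 rose and 0 fell. Among the neuron markers that rose, Map2 did so at its brightest probe set (0.39) but fell at its other tested probe set. The paper reports lower hippocampal Map2 in stressed rats. Snap25, also among them, lost its call in 15 of 16 alternatives. Of 13 oligodendrocyte markers 2 rose and 2 fell, of 11 astrocyte markers 1 rose and 1 fell, and of 8 microglia markers 1 rose and 2 fell. The astrocyte marker Slc1a3 rose at its brightest probe set (0.37) and fell at another. The oligodendrocyte marker Cnp fell at its brightest (-0.25) and rose at its other. Of 7 dentate gyrus markers 3 rose and 0 fell, Dsp among them through the stressed arrays alone, and the CA3 marker Prss35 and the oligodendrocyte precursor marker Cspg4 likewise entered through 1 group. Of 8 thalamus markers 1 rose and 2 fell. The part of these cell types in the differences of the channel genes and their partners was not tested.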

How the data were processed

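Hippocampal RNA of 2 stressed and 2 control pools, each of 3 rats, was hybridized to 1 Affymetrix array a pool. The deposited values are linear signal intensities that the authors computed with GCOS. After trimming 2% of values at each end, their mean was 300.1 on all 4 arrays. No normalization was added. The number of arrays limits the precision. Zeros were set to 0.1 and signals were taken as log2. Of 31042 probe sets (57 Affymetrix controls left out), 14791 reached a signal of 100 on 2 or more arrays and entered the test. Groups, as labelled, were compared with limma 3.58.1 (R 4.3.3), whose moderated spread followed an intensity trend (7.73 degrees of freedom), without a replicate block. P-values were adjusted by Benjamini-Hochberg over these probe sets, and the fit was tested on simulated data. The smallest two-sided p of an exact permutation test with 2 arrays a group is 0.333. Detection calls were not used.

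The platform annotation gave 1 gene symbol to 20826 probe sets, several to 436 and none to 9780. All 46 channel probe sets matched the RefSeq table of GRCr8 by gene ID with the same symbol. Named genes were the channel probe sets past the test, all tested probe sets of channel genes with several, the other tested ones, and listed partners past the test at their brightest probe set (highest mean log2 signal). Other named genes were added after their values were seen. The channel genes and the 14 gene lists were chosen with earlier results of these data known. The alternatives were quantile normalization, median centring, other filters, an offset of 50, a floor of 50, no intensity trend and the methods' t-test. Others were the methods' thresholds on the limma fit, the replicate block, the mean over a gene's probe sets, and each array left out. Plots used python 3.11.15 and matplotlib 3.10.9.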

Additional observations from a re-analysis of the deposited data

How the results depend on the processing

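The direction of the 4 called channel probe sets could hardly turn in the alternatives. Changes of test, filter or block left the log2 difference as it was, and leaving out an array cannot turn groups that do not overlap. Their side of the threshold was not kept in every alternative. For the channel probe sets (3 higher, 1 lower), median centring and no filter on dim probe sets each left 1 higher, and among sodium channels (2 higher, 1 lower) 0 higher. Moderation without an intensity trend left 1 channel probe set higher and 0 lower, among sodium channels 1 and 0, and among calcium channels 0 higher. The methods' t-test, on log2 and on linear signals, called 0 channel probe sets after adjustment, in sodium and calcium channels alike (4 higher and 1 lower at an unadjusted p under 0.05), and 0 partner genes (9 higher and 6 lower on log2 signals, 9 and 5 on linear ones, unadjusted). The methods' thresholds gave 0 channel probe sets, and 0 partner genes higher and 2 lower. Over all tested probe sets (1771 higher, 1744 lower), the counts were 1000 and 1147 without the trend. They were 4 and 14 by the t-test on log2 signals and 4 and 12 on linear signals. The methods' thresholds on the limma fit gave 32 and 204.

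Leaving out 1 array gave 650 to 1148 higher and 791 to 1342 lower among all tested probe sets, 0 to 3 higher and 0 to 2 lower among channel probe sets, 0 to 1 in each direction for sodium channels and for calcium channels, and 0 to 1 higher for the HCN probe set. Signs turned for Scn4b (-0.06 to 0.03, above 0 without stressed replicate 2), Cacnb2 1370178_at (-0.03 to 0.10, below 0 without stressed replicate 1), Cacnb3 (-0.34 to 0.09, above 0 without control replicate 2) and Hcn2 (-0.32 to 0.52, below 0 without stressed replicate 1 and, at -0.03, without control replicate 2). With the mean of all tested probe sets of a gene, 1 channel gene was lower, against 0 at the brightest probe set. The partner genes (19 higher, 5 lower) gave 10 higher without the filter, 8 higher and 3 lower without the trend, and 6 to 12 higher and 3 to 5 lower with an array left out. The cause of these differences was not tested.

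The replicate numbers name no shared animal or day, and the deviations of same-numbered arrays correlated at -0.110. With the replicate block, 1 channel probe set was higher, 0 of them a sodium channel, and 11 partner genes were higher. The crossed pairing, chosen after seeing the data, gave 2 channel probe sets lower, and 2 higher and 1 lower among calcium channels. With 2 arrays a group, differences as small as those of most channel genes lie near the limit of what could be called. Signals under 100 entered the main comparison only where the other arrays reached 100, and their log2 differences depend on any offset.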

Other observations

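Of the 27 channel probe sets too dim to be tested, 5 belonged to genes with a tested probe set. The others covered 15 genes with no tested probe set. These were Cacna1a, Cacna1d, Cacna1e, Cacna1f, Cacna1g, Cacna1i, Cacna1s, Cacnb4, Hcn3, Hcn4, Scn4a, Scn8a, Scn9a, Scn10a and Scn11a. A dim probe set does not show that a gene is silent, and Scn8a, Cacna1a and Cacna1e, all widely used in hippocampal neurons, were among them. Signals lay between 1.0 and 91.2, and 20 of the 27 stayed under 50 on every array. The mean log2 signal was higher in stressed rats for 22 of the 27 (81.5%, against 58.4% of all 16251 untested probe sets). The median log2 difference was 0.29, against 0.12 for all untested probe sets.

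With no filter on dim probe sets, 0 of the 27 passed by limma after adjustment and 2 had an unadjusted p under 0.05. Hcn3, an HCN subunit little affected by cyclic AMP, had 75.6 and 59.2 in stressed rats and 24.4 and 41.7 in nonstressed controls, a log2 difference of 1.07 (adjusted p = 0.115 over all probe sets). The Cacna1a probe set 1398459_at, for the P/Q-type pore that triggers fast transmitter release, had 53.6 and 68.7 in stressed rats and 24.9 and 39.5 in nonstressed controls, a difference of 0.95 (adjusted p = 0.146). Cacna1e, the R-type pore, went the other way, with 2.8 and 3.0 in stressed rats and 9.1 and 11.2 in nonstressed controls, but these signals are close to the bottom of the scale.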
